A study of Rattus norvegicus with 6 samples.

Results

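The mitochondrial genome of the rat contributed 13 transcript lines of 60887 in the deposited assembly, and these 13 mRNAs are described here in primary beta cells treated with a control siRNA or with an siRNA against Nova1. Members were chosen by position alone, as every transcript line on chromosome MT, with names taken from the assembly. No measured value entered this rule, although it was chosen with earlier results of these data known. All 13 matched a reference transcript (class code =), each had 1 exon, and each formed 1 of the 24579 gene models. They encode 7 subunits of complex I, 1 of complex III, 3 of complex IV and 2 of complex V. The files hold no line for the mitochondrial ribosomal or transfer RNAs, which were not analysed here.

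Mitochondria keep a small circular genome whose mRNAs encode the hydrophobic core subunits of the respiratory chain and of ATP synthase, while most subunits are encoded in the nucleus and imported. Long precursor RNAs are transcribed from each strand by the RNA polymerase Polrmt with Tfam and Tfb2m. They are cut at the transfer RNAs that lie between most of the mRNAs. Most mRNAs are given short poly(A) tails and stabilised by Lrpprc and Slirp. In beta cells, respiration couples glucose breakdown to the rise in ATP that closes potassium channels and releases insulin.

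The 6 libraries came from 3 batches of rat pancreatic beta cells purified by fluorescence-activated sorting. In each batch 1 sample received a non-targeting control siRNA and the other the Nova1 siRNA, at 30 nM for 16 h with 48 h of recovery, per the labels' protocols. The labels used here give no age, sex or strain, and do not say if a batch is an animal or a pool of them, so each p-value reflects variation among these batches, which may be technical. RNA was selected with oligo(dT) beads and products of 200 bp were excised from a gel.

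Libraries held between 95394043 and 292432076 assigned reads, and the control was the deeper library in each batch. Nova1, the RNA-binding splicing factor targeted, stood at 20.6, 21.5 and 17.4 CPM (reads scaled to library size) in control batches 1, 2 and 3 and at 7.76, 10.2 and 9.43 CPM in the knockdown, which limma put at -1.12 on the log2 scale (SE 0.11, adjusted p = 0.038), so RNA was reduced and not removed. Of 10 beta cell markers, 9 were detected at 67.0 CPM or more in all libraries and G6pc2 was at or near 0. Glucagon (Gcg) was also present, at 5284 to 13896 CPM and highest in both batch 2 libraries. Summed immune markers reached 20.4 CPM and endothelial markers 1.12 CPM. Batch 2 stood apart, with Ins1 at 83073 and 57723 CPM against 140591 to 153302 CPM in the other 4 libraries.

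Together the 13 mRNAs took 3.83%, 4.24% and 3.71% of assigned reads in control batches 1, 2 and 3, and 3.67%, 4.32% and 3.73% in the knockdown. Both batch 2 libraries were above the other 4, and the groups overlapped. Reads were abundant for every member. The least covered value was ATP8 in the batch 2 knockdown, with 16986 reads, so counting error was small beside the spread between batches. All 13 passed the filter on low reads, which none of them came close to.

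Complex IV mRNAs were the most abundant per length. They encode the core of cytochrome c oxidase, the enzyme that passes electrons to oxygen. Levels are given in RPKM, the deposited unit, which scales reads by transcript length and library size, for batches 1, 2 and 3 in that order. COX1, at positions 5323 to 6867 of the plus strand of MT in Rnor_5.0, was at 7478, 7963 and 7249 RPKM in controls and at 6930, 8352 and 7267 RPKM in knockdown libraries. Its highest library was 1.21 times its lowest, with the batch 2 libraries on top. MTCO3, the third oxidase subunit (positions 8599 to 9382), was at 8240, 7034 and 8588 RPKM in controls and 7860, 6547 and 8191 RPKM in knockdown libraries. COX2, which holds the copper site that accepts electrons from cytochrome c (7006 to 7689), was at 5504, 4337 and 5647 RPKM and at 5405, 3972 and 5575 RPKM. In MTCO3 and COX2 the batch 2 libraries were the lowest of the 6, the reverse of COX1 in RPKM. In CPM, COX1 in batch 2 (12046 and 11962) lay within the range of the other libraries (11292 to 12331), so that contrast depends on the scaling. Complex IV made up 46.8% to 55.1% of the summed mitochondrial RPKM. COX1 and MTCO3 ranked between 6 and 11 among all gene models by RPKM in every library.

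The 2 complex V mRNAs overlap and differed in level. MT-ATP6, the proton channel subunit of ATP synthase (7919 to 8599), was at 5033, 4576 and 5151 RPKM in controls and 4806, 4445 and 4951 RPKM in knockdown libraries. ATP8, a small subunit of the same complex (7758 to 7961), was at 998, 890 and 825 RPKM and at 901, 828 and 846 RPKM. MT-ATP6 varied least of the 13 by this measure, its highest library being 1.16 times its lowest. The ratio of MT-ATP6 to ATP8 stayed between 5.04 and 6.24. The pair shares 43 nt and ATP8 is the shortest member at 204 nt, close to the 200 bp product size, and the part of either fact in this ratio was not tested. In animals the pair is read from a common bicistronic mRNA, so the 2 values need not stand for separate molecules.

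CYTB was the only complex III mRNA. It encodes cytochrome b, which takes electrons from ubiquinol, and lies at 14136 to 15278. Its level was 3333, 4319 and 2684 RPKM in controls and 3232, 4381 and 2854 RPKM in knockdown libraries. Within each treatment batch 2 was highest and batch 3 lowest.

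Complex I, the NADH dehydrogenase, takes electrons from NADH, and its mRNAs include the 5 whose highest and lowest libraries lay furthest apart in fold. ND2, a membrane-arm subunit (3904 to 4942), was at 2166, 2546 and 2185 RPKM in controls and 2078, 2524 and 2285 RPKM in knockdown libraries. ND1, next to the ubiquinone site (2740 to 3694), was at 1520, 1802 and 1161 RPKM and at 1520, 1746 and 1328 RPKM. These mRNAs, the first in genome order, varied by 1.23 and 1.55 times over the 6 libraries.

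ND3 (9451 to 9798) encodes a small membrane subunit. It was at 2609, 1365 and 2838 RPKM in controls and 2345, 908 and 2196 RPKM in knockdown libraries. The highest library was 3.13 times the lowest, the largest such fold of the 13, although within controls the coefficient of variation was larger for ND5 (44.3%) than for ND3 (34.9%). Both batch 2 libraries were far below the other 4.

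ND4L, ND4, ND5 and ND6 also varied widely, in the opposite sense to ND3. ND4L (9870 to 10166) was at 843, 1399 and 585 RPKM in controls and 743, 1461 and 761 RPKM in knockdown libraries. ND4 (10160 to 11537) was at 1519, 2407 and 1013 RPKM and at 1488, 2498 and 1247 RPKM. Both encode proton-pumping parts of the membrane arm and are commonly carried on a shared bicistronic mRNA. ND5, the distal pump subunit (11736 to 13565), was at 895, 1458 and 599 RPKM in controls and 822, 1614 and 771 RPKM in knockdown libraries. ND6 (13543 to 14061) is the only member on the minus strand, and stood at 754, 980 and 444 RPKM and at 769, 1064 and 573 RPKM. In each of these 4 mRNAs both batch 2 libraries were highest and the batch 3 control lowest. Complex I mRNAs were 22.6% to 29.3% of the mitochondrial RPKM.

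**Figure D1:**
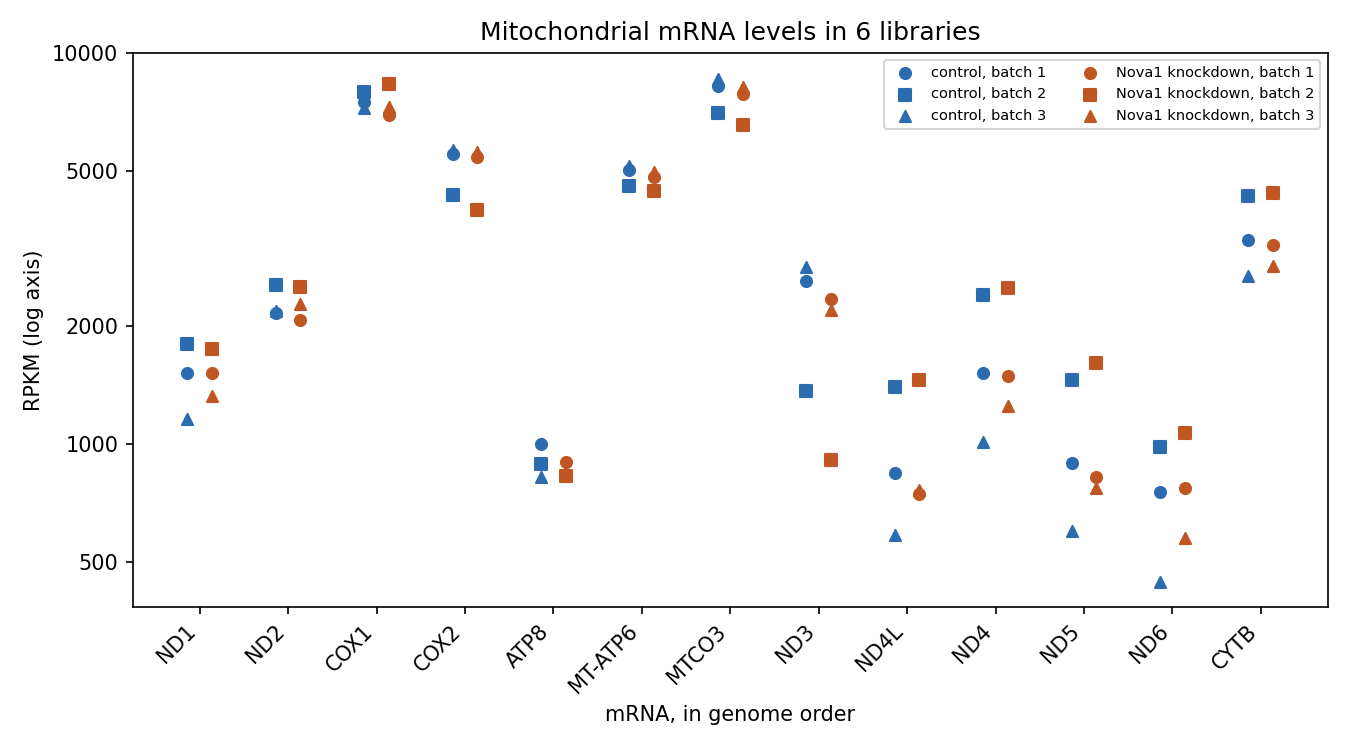
RPKM of each mitochondrial mRNA (log axis) in genome order, with 1 point per library, blue for control and orange for Nova1 knockdown, and marker shape for batch. MTCO3, COX1, COX2 and MT-ATP6 lie highest, and COX1 spans 6930 to 8352 RPKM. Batch 2 (squares) lies above the other batches from ND1 to COX1. It lies below them from COX2 to ND3 (except in ATP8) and above them again from ND4L.

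Ordered by control mean, the mRNAs ran MTCO3 (7954 ± 815 RPKM, SD, n = 3), COX1 (7563 ± 365), COX2 (5163 ± 719), MT-ATP6 (4920 ± 304), CYTB (3445 ± 823), ND2 (2299 ± 214), ND3 (2271 ± 792), ND4 (1646 ± 705), ND1 (1494 ± 321), ND5 (984 ± 436), ND4L (942 ± 416), ATP8 (904 ± 87.6) and ND6 (726 ± 269 RPKM). Of neighbours in this order, COX1 was above COX2, MT-ATP6 above CYTB, CYTB above ND2, ND1 above ND5 and ND5 above ND4L in 6 of 6 libraries. The other neighbours traded places. MTCO3 was above COX1 in 4 of 6 libraries and ND2 above ND3 in 3 of 6, so those orders did not hold beyond the spread.

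Mitochondrial mRNAs stood far above the nuclear mRNAs of the respiratory chain and ATP synthase. The median over the 13 was 2166, 2407 and 2185 RPKM in control libraries. It was 108, 67.0 and 113 RPKM for 79 nuclear respiratory chain gene models and 4.50, 5.42 and 4.14 RPKM for all genes tested. These 79 models, called genes below, include 4 of complex II, which has none of the 13. A few genes are held as more than 1 model. Between 9 and 13 of the 13 were among the 50 most abundant gene models of a library. All 13 were in that set in both batch 2 libraries.

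The difference between batches ran in blocks along the mitochondrial genome, and transcript length differed between the blocks as well. In CPM, the 5 consecutive mRNAs COX2, ATP8, MT-ATP6, MTCO3 and ND3 were lower in both batch 2 libraries than in the other 4 libraries. By contrast ND1 and the 5 consecutive mRNAs ND4L, ND4, ND5, ND6 and CYTB were higher there. COX1 in batch 2 lay within the range of the other libraries. For ND2 the batch 2 control was the highest library (2590 CPM) and the batch 2 knockdown (2431 CPM) lay within the range of the others. Both batch 2 libraries thus lay outside the others in CPM for 11 of 13 mRNAs, 5 below and 6 above. Of all 15983 genes tested 58.4% did so (27.9% below, 30.5% above), so the count itself is no result about these mRNAs, and what is described is their order along the genome. The batch 2 mean minus the mean of batches 1 and 3 was -0.58 (log2 CPM) for COX2, -0.22 for ATP8, -0.31 for MT-ATP6, -0.44 for MTCO3 and -1.32 for ND3. It then stepped to 0.81 for ND4L, 0.75 for ND4, 0.84 for ND5, 0.56 for ND6 and 0.36 for CYTB. For ND1, ND2 and COX1 it was 0.20, 0.05 and 0.01, while in RPKM both batch 2 libraries were above the other 4 for each of these. These runs were noticed in the values and carry no test. The 5 lower mRNAs were 204 to 784 nt long. Of the 6 higher ones, ND1, CYTB, ND4 and ND5 were 955 to 1830 nt, while ND4L and ND6 were 297 and 519 nt. ND2 and COX1 were 1039 and 1545 nt. The part of length in this order was not tested.

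The step lies between ND3 and ND4L, mRNAs of similar length (348 and 297 nt) separated by 71 nt. Their RPKM ratio was 3.10, 0.976 and 4.85 in control batches 1, 2 and 3 and 3.16, 0.621 and 2.89 in the knockdown. The highest ratio, in the batch 3 control, was 7.81 times the lowest, in the batch 2 knockdown. After the step, ND4 to ND4L stayed between 1.64 and 2.00, and ND6 to ND5, on opposite strands with 23 nt shared, between 0.659 and 0.936. ND5 to CYTB ran from 0.223 to 0.368. Before it, MTCO3 to ND3 ran from 3.03 to 7.21, MT-ATP6 to ATP8 from 5.04 to 6.24 and MTCO3 to COX1 from 0.784 to 1.18. Of these ratios, those with ND3 varied most, by 7.81 and 2.38 times, and the others were not steadier on one side of the step. The batch 3 control was the mirror of batch 2, highest for ND3 and lowest for ND4L, ND4, ND5 and ND6. The stretch from COX2 to ND3 held 54.7%, 44.3% and 59.1% of mitochondrial RPKM in controls and 54.8%, 41.4% and 56.0% in knockdown libraries, while ND4L to CYTB held 18.0%, 25.7% and 13.7% and 18.1%, 27.3% and 16.0%.

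**Figure D2:**
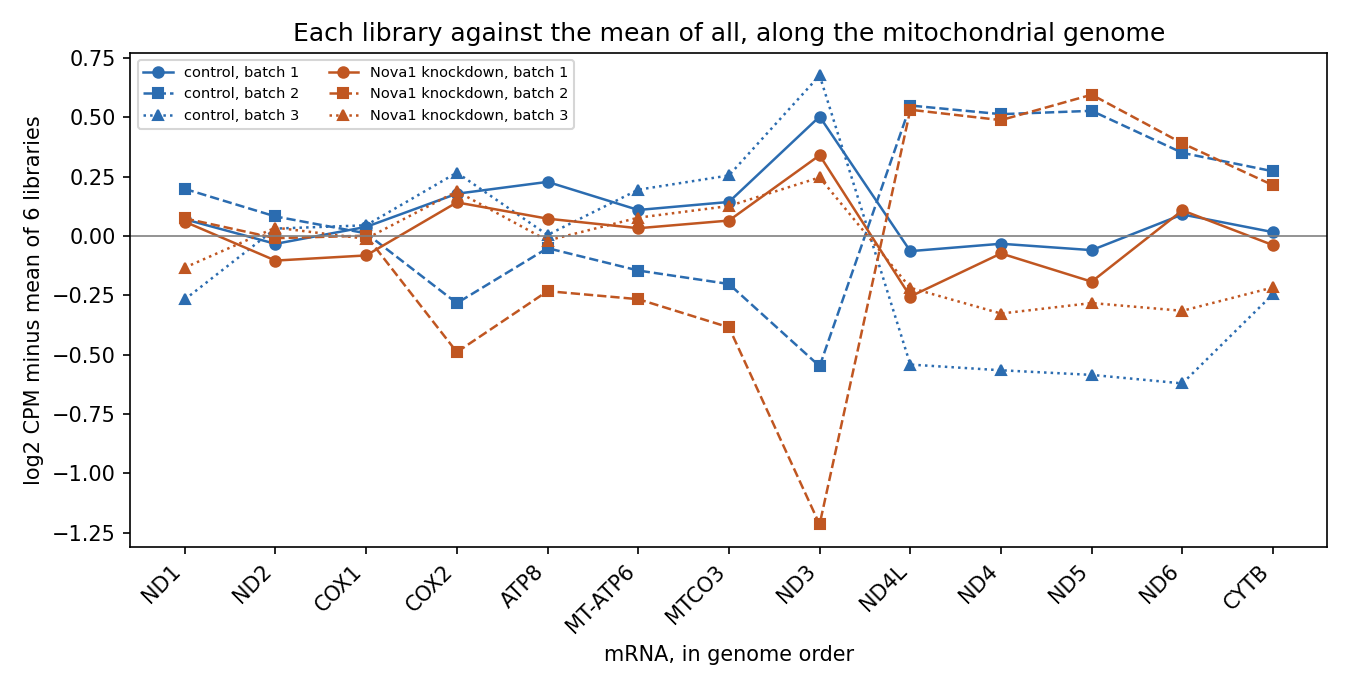
Log2 CPM of each mRNA minus its mean over the 6 libraries, in genome order, with 1 line per library, blue for control, orange for Nova1 knockdown, and line style for batch. The batch 2 lines (dashed) are below the others from COX2 to ND3 and above them from ND4L to CYTB. Over these stretches the batch 3 control (dotted blue) runs the other way, except in ATP8.

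Several features moved with batch 2, and their part in the profile, like that of transcript length, was not tested. Insulin genes and nuclear respiratory chain genes were lower there, and Gcg and Ppy, a hormone of pancreatic polypeptide cells, were higher (Ppy at 716 and 560 CPM against 231 to 329 CPM). Summed acinar markers were 642, 339 and 255 CPM in controls and 487, 281 and 179 CPM in knockdown libraries, so batch 2 was intermediate. In bulk samples, fewer cells of a type, fewer mitochondria and less RNA per cell cannot be told apart.

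None of the 13 mRNAs passed the test between knockdown and control. The same test called 1.71% of 15983 genes (1.2% lower and 0.513% higher, limma-voom with batch as a block, adjusted p below 0.05), so 0 of 13 is close to that background. The median log2 fold change was -0.05 over the 13 and 0.00 over all genes tested, with 9 mRNAs below 0 and 4 above. At an unadjusted p below 0.05 there were 2 mRNAs, ND3 and MTCO3, where 23.9% of all genes reached that level. Depth and some markers of other cell types moved with the treatment. The control library was deeper in each batch. Summed stellate and fibroblast markers were 37.1, 42.2 and 80.7 CPM in controls against 92.7, 99.4 and 118 CPM in knockdown libraries. Of these, Col1a1, Col1a2 and Col3a1 were higher in the knockdown of each batch. Pdgfrb and Dcn were higher in batches 1 and 2 and lower in batch 3 (3.26 to 1.95 and 2.43 to 2.41 CPM). Gcg was 5284, 13021 and 8205 CPM in controls and 7174, 13896 and 10235 CPM in knockdown libraries. The macrophage gene Lyz2 was 3.42, 3.47 and 1.54 CPM in controls and 7.97, 12.8 and 3.26 CPM in knockdown libraries. Another macrophage gene, C1qa, went the other way, from 11.6, 9.67 and 10.9 CPM to 8.58, 6.69 and 7.91 CPM. Summed immune markers were 15.3, 13.6 and 12.6 CPM and 17.1, 20.4 and 11.6 CPM, with no common direction. Summed acinar markers were lower in the knockdown of each batch, while the low-level markers Cela1, Cel and Pnlip were higher in the batch 3 knockdown. The part of these in the values was not tested.

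ND3 had the largest difference. In CPM it was at 964, 465 and 1087 in controls and 861, 293 and 807 in knockdown libraries, lower in the knockdown of each batch while the groups overlapped. Its log2 fold change was -0.42 (SE 0.10, 95% interval -0.67 to -0.17, adjusted p = 0.098 in limma). The differences were -10.8%, -37.1% and -25.8% in batches 1, 2 and 3. With a correction for transcript length, an alternative added after seeing the data, it was -0.24 (adjusted p = 0.051 in limma, which then called 3.89% of all genes).

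The 5 mRNAs from COX1 to MTCO3, just before ND3, had smaller differences in the same direction. MTCO3 was at -0.13 (interval -0.26 to -0.01, adjusted p = 0.20 in limma), from 6559 ± 1041 to 6013 ± 1096 CPM (SD, n = 3). COX2 was at -0.11 (interval -0.25 to 0.03), MT-ATP6 at -0.11 (-0.22 to 0.01) and ATP8 at -0.12 (-0.25 to 0.01). COX1 was at -0.06 (-0.19 to 0.07), with 12274, 12046 and 12331 CPM in controls and 11292, 11962 and 11856 CPM in knockdown libraries. COX1 was the only member whose CPM groups did not overlap, against 8.06% of all genes, and its RPKM groups did overlap. These 5 mRNAs and ND3, 6 in all, were lower in the knockdown of all 3 batches, as were 24.5% of all genes, and 50.2% of all genes kept 1 direction over the batches. The length correction put COX2, ATP8 and MT-ATP6 at 0.02, 0.09 and 0.02, so their direction depends on it, and 3 of 13 mRNAs were then below 0 against 48.7% of all genes.

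The other 7 mRNAs had no common direction. ND4L was at 0.04 (interval -0.22 to 0.29), ND4 at 0.06 (-0.12 to 0.24) and ND5 at 0.08 (-0.14 to 0.31). Their knockdown differences were 24.7%, 18.0% and 23.4% in batch 3 and -12.5%, -2.76% and -8.83% in batch 1. Without batch 3 their log2 fold changes were -0.11, -0.03 and -0.03. ND6 was at 0.12 (-0.06 to 0.30, adjusted p = 0.35 in limma) and was the only member higher in the knockdown of every batch (25.7% of all genes were), by 1.31%, 2.75% and 23.6%. CYTB was at -0.03 (-0.15 to 0.09), ND1 at 0.00 (-0.16 to 0.16) and ND2 at -0.05 (-0.17 to 0.07). For 12 of the 13 mRNAs the interval thus lay within 0.31 of 0 on the log2 scale, ND3 being the exception.

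**Figure D3:**
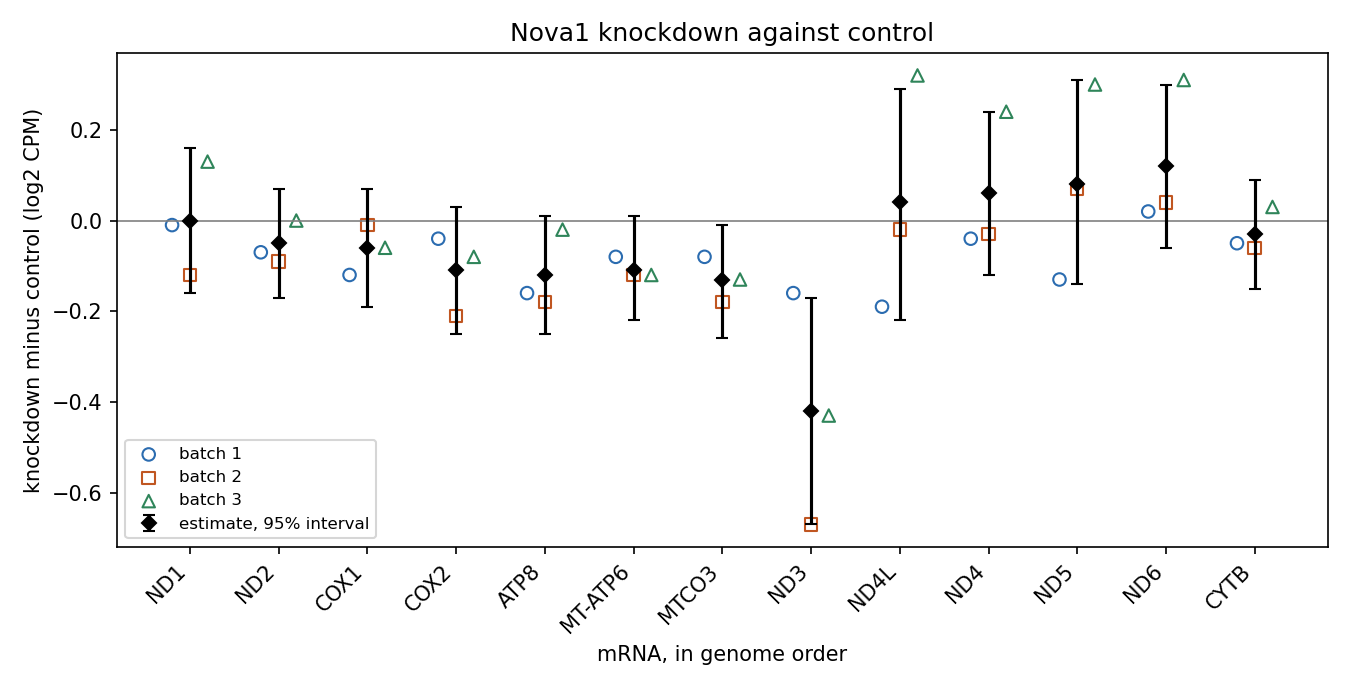
Knockdown minus control in log2 CPM for each mRNA in genome order, with black diamonds and bars for the estimate and its 95% interval and open symbols for the difference in each batch. Intervals cross 0 for all but MTCO3 and ND3, and batch 3 (triangles) is the highest symbol from ND4L to CYTB.

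The summed level of the 13 mRNAs was lower in the knockdown after scaling, while as a share of all reads it overlapped, and the sign of the difference depended on the scale. As a percentage of assigned reads it was 3.93 ± 0.279% in controls and 3.91 ± 0.357% in knockdown libraries (SD, n = 3), with within-batch differences of -0.163, 0.0756 and 0.0267 percentage points (exact permutation test on batch differences, two-sided p = 1.0, smallest possible 0.25). Without reads of Ins1 and Ins2, which took up to 21.7% of a library, the share was 4.80 ± 0.0783% and 4.72 ± 0.0621%, lower in the knockdown of each batch (exact p = 0.25). After scaling by trimmed mean of M values, the summed level was 40581, 39918 and 39420 CPM in controls and 38303, 37955 and 38361 CPM in knockdown libraries. These groups did not overlap, with differences of -5.61%, -4.92% and -2.69% (exact p = 0.25 over batches, and 0.10 over the 6 libraries, the smallest possible in each case). Of the summed RPKM of a library the mRNAs held 4.71 ± 0.785% and 4.89 ± 1.22%, a difference in the other direction.

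**Figure D4:**
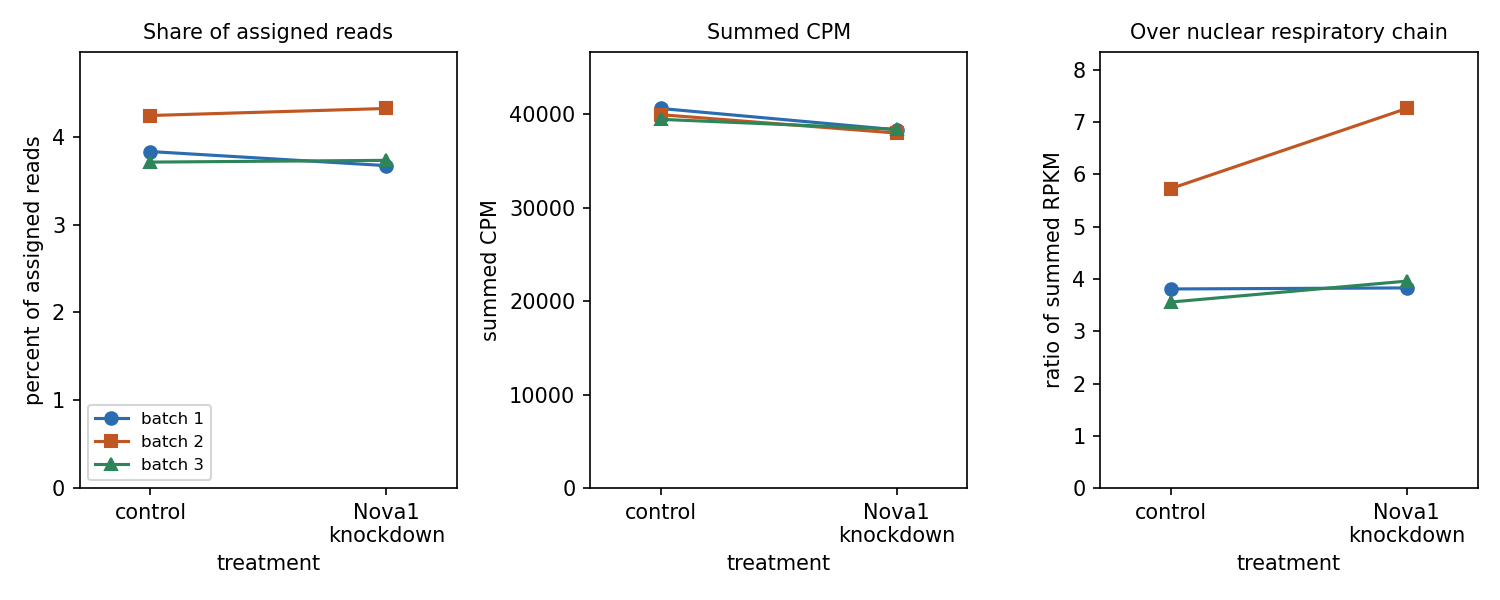
From left to right, the mitochondrial percentage of assigned reads, the summed CPM of the 13 mRNAs, and their summed RPKM divided by that of 79 nuclear respiratory chain genes, with a line joining control and knockdown of each batch. The share is between 3.67% and 4.32%, the summed CPM is lower in all 3 knockdown libraries, and the ratio is highest in batch 2 (5.73 and 7.26).

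Of 23 nuclear genes of mitochondrial DNA transcription and replication and 28 of mitochondrial RNA processing and stability, all tested, 0 were called in limma at an adjusted p below 0.05 (7 and 3 had an unadjusted p below 0.05). Over all genes tested the shares were 1.71% and 23.9%. Their medians were -0.10 and -0.02 on the log2 scale. Polrmt, the mitochondrial RNA polymerase, was at -0.03 (SE 0.08), with 11.5 ± 3.37 and 11.2 ± 2.36 CPM. Tfam, which packages the genome and starts transcription, was at -0.10 (interval -0.21 to 0.01), and Tfb2m, the other initiation factor, at 0.03 (-0.15 to 0.20). Among RNA factors, Lrpprc was at -0.06 (-0.19 to 0.07), its partner Slirp at -0.09 (-0.39 to 0.22) and the poly(A) polymerase Mtpap at 0.13 (-0.03 to 0.29). Ppargc1a, the coactivator PGC-1alpha that drives mitochondrial biogenesis, was at 49.8, 35.6 and 40.0 CPM in controls and 32.9, 31.6 and 32.2 CPM in knockdown libraries. Its groups did not overlap, as for 8.06% of all genes, and the log2 fold change was -0.37 (SE 0.09, adjusted p = 0.10 in limma). With the length correction, added after seeing the data, it passed at -0.51 (adjusted p = 0.036 in limma). It was then the only 1 called of the 51 genes, beside 3.89% of all genes.

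Nuclear respiratory chain genes had a lower median difference than the mitochondrial mRNAs. Of 79 gene models 78 had a negative log2 fold change, against 9 of 13 mitochondrial mRNAs and 49.2% of all genes tested, and the median was -0.22. Only Cox5a, a nuclear subunit of complex IV, was called, from 84.4, 47.9 and 98.0 CPM in control to 54.7, 30.4 and 73.3 CPM in the knockdown (-0.56, SE 0.06, adjusted p = 0.042 in limma), so 1 of 79 stood beside 1.71% of all genes. No gene of the list was called without the block, with library totals, with limma-trend, with the trimmed mean over unfiltered genes, or without batch 1 or batch 2. Their median length was 629 nt, against 784 nt for the mitochondrial mRNAs and 2277 nt for all genes. With the length correction 76 of 79 were negative with a median of -0.12 and 5 were called, beside 3.89% of all genes, while the mitochondrial median became 0.05. Between batch 2 and the other batches the 2 sets lay further apart, with a median of -0.86 for nuclear respiratory chain genes and 0.05 for mitochondrial mRNAs. Summed RPKM of the mitochondrial mRNAs was 3.81, 5.73 and 3.56 times that of the nuclear genes in controls and 3.83, 7.26 and 3.96 times in knockdown libraries. The ratio was higher in the knockdown of each batch, by 0.546%, 26.6% and 11.3% (exact permutation p = 0.25, the smallest possible). The difference between the 2 gene groups was not tested further.

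**Figure D5:**
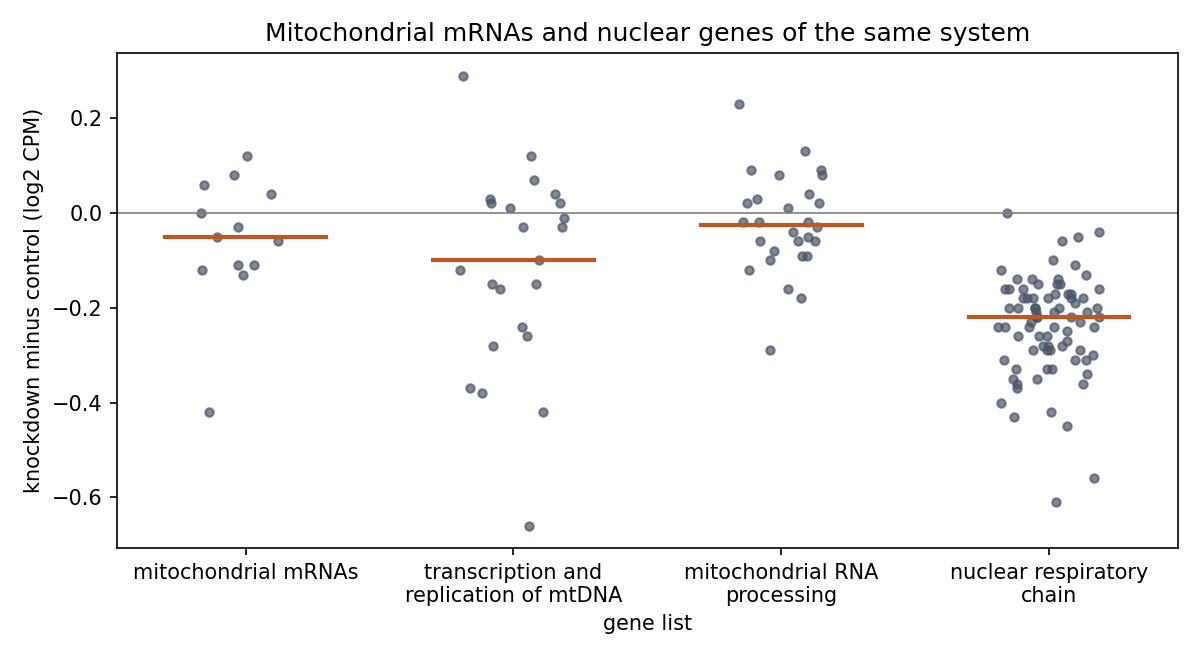
Knockdown minus control (log2 CPM) for each gene of 4 lists, 1 point per gene, with an orange bar at the list median. The medians are -0.05 for mitochondrial mRNAs, -0.10 and -0.02 for nuclear genes of mitochondrial DNA and RNA handling, and -0.22 for 79 nuclear respiratory chain genes.

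How reads were divided shows in the values of neighbouring genes. The 5 mRNAs that share nucleotides with a neighbour on the same strand (ATP8, MT-ATP6, MTCO3, ND4L and ND4) had no whole read value among 30, and the other 8 had 41 whole values of 48 (tolerance 0). All 41 were even. MT-ATP6 and MTCO3 share 1 nt and ND4L and ND4 share 7 nt. ND5 and ND6 share 23 nt on opposite strands and were whole in 5 and 6 libraries. Reads of the 2 strands cannot be told apart where the counting is not stated to use strand, so the level of ND6 is uncertain in this respect. RNA was selected with oligo(dT) beads, and the part of this selection in the level of ND6 was not tested.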

How the data were processed

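Poly(A) RNA of 6 libraries was sequenced on a HiSeq instrument, with RNA integrity numbers from 7.5 upward, per the labels' protocols. The submitters' processing notes name TopHat and Rnor_5.0. How reads were assigned to transcripts, and whether strand was used, is not given in the sources used here. For each transcript the authors deposited estimated reads, a length and an RPKM value as attribute text, so no count model was used. Of whole read values 99.9% were even, as when both mates of a pair count. The RPKM denominator exceeded the summed reads by factors of 1.0031 to 1.0543.

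Libraries were grouped and paired by the batch number in their titles. Reads were summed per gene model, and 15983 genes passed a filter (10 reads, rescaled to median depth, in 3 libraries or more, and a total of 15). Scaling used a trimmed mean of M values that left out 30% of M and 5% of A. The voom model (limma 3.58.1, R 4.3.3) had batch as its block, and p-values were adjusted over all genes by the Benjamini-Hochberg method. The function was tested on simulated data. Within batches, deviations from the group mean correlated at 0.38, 0.72 and 0.55 between control and knockdown. Single values per library were compared by exact permutation. All mitochondrial mRNAs, 7 fixed nuclear genes and up to 4 called genes per list are named; others were chosen after their values were seen. Members and lists were chosen with earlier results of these data known. Of 142 list symbols 140 matched a gene model, 22 of them through synonyms in a RefSeq table on GRCr8 used for names only. No sequence is printed.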

Additional observations from a re-analysis of the deposited data

How the results depend on the processing

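No mitochondrial mRNA was called under any of 14 alternatives, and the smallest adjusted p in limma was 0.051 (ND3, with the correction for transcript length). ND3 kept its direction in all of them, between -0.55 and -0.24, as did MTCO3 (-0.16 to -0.02) and ND6 (0.03 to 0.27), while COX1 reached 0.00. Of 182 values, 163 kept their direction and 19 turned, all near 0. ND1 was at 0.06 with library totals alone or scaled to mitochondrial reads, 0.05 with limma-trend on log2(RPKM + 1) or + 0.1, 0.10 with the length correction, and -0.07 to 0.06 when a batch was left out (0.06 without batch 2). CYTB was at 0.03, 0.04, 0.02, 0.02 and 0.05, and ND2 at 0.01 and 0.04 (scaled to mitochondrial reads, length correction). With the length correction COX2, ATP8 and MT-ATP6 were at 0.02, 0.09 and 0.02. Leaving out a batch, ND4L ran from -0.11 to 0.15, ND4 from -0.03 to 0.11 and ND5 from -0.03 to 0.19, each lowest without batch 3.

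The difference in the mitochondrial percentage, -0.0204 points, was 0.180 as a percentage of summed RPKM and -0.0684 to 0.0511 leaving out a batch (higher only without batch 1). The lines hold no ribosomal or transfer RNA, so the mRNA share is the same value.

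Among all genes 274 were called, against 0 with no replicate block (521 at an unadjusted p below 0.05) or limma-trend with either pseudocount (3193 and 3111), 91 with library totals, 124 when scaled without mitochondrial and insulin reads, 171 with no filter, 119 with a stricter filter, 72 with the trimmed mean over unfiltered genes and 622 with the length correction (both added after seeing the data), and 0 to 75 without a batch. The split of higher and lower calls was 82 and 192, 47 and 44 with library totals, 395 and 197 when scaled to mitochondrial reads (592 called), and 177 and 445 with the length correction. Library totals and scaling to mitochondrial reads moved the median of all genes to 0.06 and 0.07. Of 79 nuclear respiratory chain genes 1 was called, against 0 with no replicate block, library totals, the trimmed mean over unfiltered genes or limma-trend with either pseudocount, 5 with the length correction, and 0 to 2 without a batch. Of 51 nuclear genes of mitochondrial DNA expression 0 were called, and 1 with the length correction. The causes were not tested.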
